A study of Mus musculus with 4 samples.

Results

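The histone genes were taken from the deposited expression table by name. They comprised the clustered replication-dependent genes, whose names begin with Hist1h, Hist2h, Hist3h or Hist4h, and the variant genes, whose names begin with H2af, H3f3 or H1f. The rule gave 88 of the 46072 genes in the table, of which 70 were clustered and 18 were variant, after 4 names marked as pseudogenes were left out. Histones package DNA: H2A, H2B, H3 and H4 form the nucleosome core and H1 binds the linker DNA between cores. The clustered genes supply the bulk of new histones in S phase, and most of their mRNAs end in a conserved stem-loop in place of a poly(A) tail. Variant genes mostly lie apart from the clustered genes. They are mostly transcribed outside S phase as well, as polyadenylated mRNAs, and supply histones that replace others in cells that do not divide.

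The study profiled RNA-seq in 4 libraries labelled brain vascular, from WT mice given no treatment, with endothelial cells taken by laser capture microdissection, which isolates chosen cells from a section with a laser. The labelled RNA fraction was poly(A) RNA, and the series title describes perfusion-fixed tissue and immunolabelling. The libraries form 1 group, here replicates 1 to 4, so all comparisons are between genes within libraries. The labels give no age, sex or strain and do not tie the libraries to animals, so a p-value here measures only the spread between libraries, which may be technical. Values are FPKM, which divides the fragments of a gene by its transcript length and the library's mapped total, so levels of different genes are compared per length. Their sums per library were 448678 to 482882, read depth is unknown, and no counting interval or detection limit is given.

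The labelled cell type was set against its markers. Of 17 pan-endothelial genes, 13 lay above 1 FPKM, with a median of mean levels of 4.31 FPKM and summed levels of 233 to 299 FPKM per library, and none of them was at 0. Markers of other brain cells were present too, all but the pericyte list at higher summed levels: all 14 neuronal genes (summed level 2901 to 3537 FPKM), all 12 oligodendrocyte genes (5040 to 6301 FPKM), all 15 astrocyte genes (1718 to 2052 FPKM), all 12 microglial genes (326 to 455 FPKM) and all 6 choroid plexus genes (11694 to 17188 FPKM) lay above 1 FPKM, as did 9 of 10 pericyte and smooth muscle genes (213 to 262 FPKM). Single genes made up much of 2 of these sums: Ttr of the choroid plexus list averaged 14493 FPKM and Mbp of the oligodendrocyte list 3187 FPKM. The medians of mean levels of these lists were 71.2 and 81.2 FPKM. Over all genes tested, 47.7% lay above 1 FPKM and the median of mean levels was 1.45 FPKM. Histone levels were measured in this RNA, and the part of each cell type in them was not tested. In such bulk samples, fewer cells of a type and less RNA per cell cannot be told apart.

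Variant genes lay at much higher levels than most clustered genes, but a few clustered genes, led by the H2B gene Hist1h2bc, reached the level of the variants. Each gene was tested against 1 FPKM, a low level of expression, on the log2(FPKM + 1) scale (limma, 2-sided, adjusted over 25206 genes, threshold 0.05), and all counts of genes above or below 1 FPKM come from that test. Of all genes tested, 47.7% lay above 1 FPKM and 40.1% lay below it. Of the 77 histone genes above 0 in at least 1 library, 23 were called above 1 FPKM and 44 below it, and 10 were not called. The remaining 11 were listed at 0 in all 4 libraries. Of 65 clustered genes tested, 12 lay above and 43 below, while of 12 variant genes tested, 11 lay above and 1 below. With FPKM rescaled to a sum of 1000000 per library, 17 clustered genes lay above 1 and 21 below, while over all genes tested the shares became 54.3% above and 29.7% below. The single variant below 1 FPKM was H3f3aos, an antisense RNA at the H3f3a locus that encodes no histone, at 0.192 ± 0.164 FPKM (SD, n = 4).

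The median of mean levels was 0.330 FPKM over the 70 clustered genes and 7.14 FPKM over the 18 variants, members listed at 0 included. Over the members tested, which leaves those out, it was 0.379 FPKM for 65 clustered genes and 29.6 FPKM for 12 variants, beside 1.45 FPKM over all genes tested. The difference of class medians, clustered minus variant, was -2.60, -2.75, -2.40 and -2.63 on the log2(FPKM + 1) scale in replicates 1 to 4, a mean of -2.60 ± 0.14 (SD, n = 4). This difference depended on which members were kept. It was 0.29 ± 0.16 (SD, n = 4) when every member that overlaps another gene or is near-identical to one was left out, which kept 10 clustered genes and 5 variants, 4 of the variants being listed at 0. With members listed at 0 left out as well, 8 clustered genes were set against H2afv alone and the difference was -5.20 ± 0.08 (SD, n = 4). Other pseudocounts, scalings and class definitions gave -4.40 to -1.38.

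**Figure D1:**
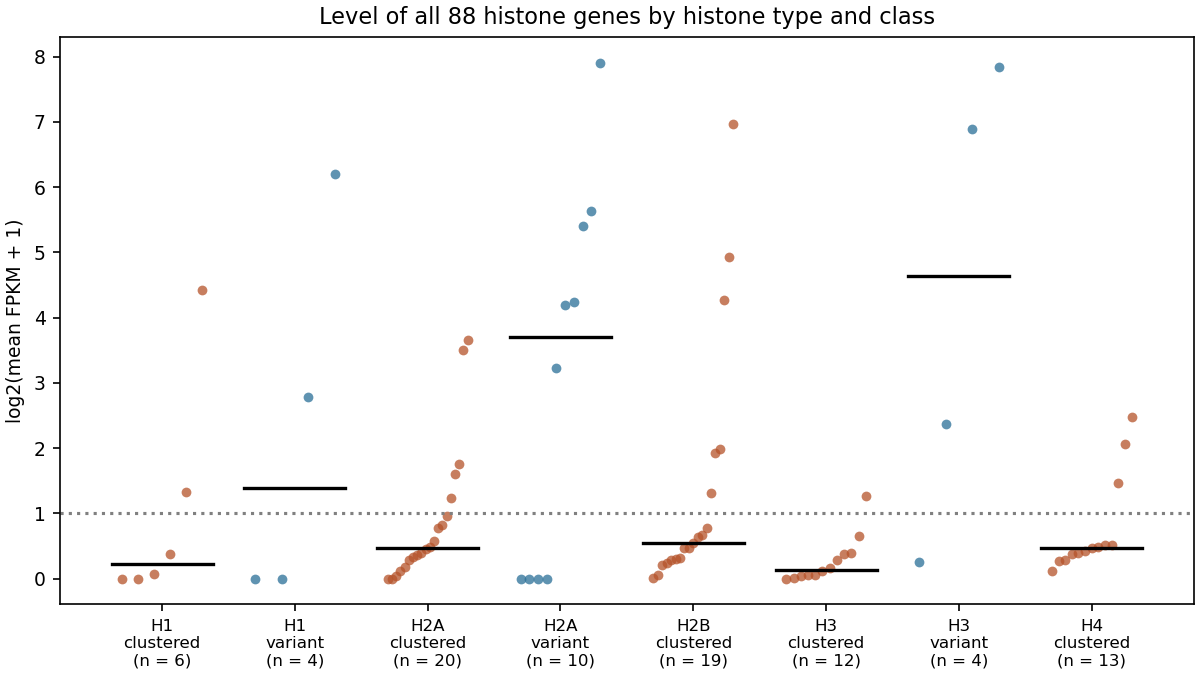
Mean level of each of the 88 histone genes, as log2(mean FPKM + 1) on the vertical axis, by histone type and class on the horizontal axis. Points are genes, bars are medians over genes and the dotted line marks 1 FPKM. Clustered H3 genes lie near 0 apart from a few, and the highest points belong to variant H2A, variant H3 and clustered H2B.

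In summed FPKM, the variants took the larger share of histone transcripts. Clustered genes summed to 254 ± 19.6 FPKM and variants to 803 ± 68.3 FPKM (SD, n = 4 each), or 0.0546% ± 0.00347 and 0.173% ± 0.0143 of all FPKM in a library. The split differed by histone type. Among H3 genes, the clustered members summed to 3.10 ± 0.668 FPKM and the variants to 351 ± 26.0 FPKM, so that variants held 99.1% ± 0.222 of H3 FPKM (SD, n = 4). Among H2A genes, the clustered members summed to 32.6 ± 15.02 FPKM and the variants to 373 ± 40.5 FPKM, and variants held 91.8% ± 3.96 (SD, n = 4). Among H1 genes, the clustered members summed to 22.3 ± 2.68 FPKM and the variants to 78.6 ± 11.1 FPKM, and variants held 77.7% ± 4.004 (SD, n = 4). H2B and H4 have no member among the variants. Clustered H2B genes summed to 184 ± 14.4 FPKM and clustered H4 genes to 12.6 ± 0.961 FPKM (SD, n = 4 each). A transcript without a poly(A) tail and a gene with less transcript cannot be told apart in poly(A) RNA, so these shares describe the RNA that was sequenced.

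H2afz, which encodes the H2A.Z histone found at promoters, had 204, 262, 224 and 268 FPKM in replicates 1 to 4, the highest mean of all histone genes. Its partner H2afv, which encodes the second H2A.Z protein, had 46.3, 47.1, 45.4 and 56.3 FPKM. H2afz was higher in 4 of 4 libraries, with a ratio of 4.91 ± 0.481 (SD, n = 4), and the 2 ranges did not overlap. The coding sequence of H2afz is near-identical to transcript sequence of 4 other annotated genes (at least 95% identity over at least 50% of its length). Matches on either strand counted, and the closest was Tmcc1 at 100% identity. H2afv has no such match.

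H3f3b and H3f3a encode the same H3.3 protein, which is deposited independently of DNA replication. H3f3b had 221, 265, 206 and 225 FPKM and H3f3a had 110, 119, 121 and 122 FPKM in replicates 1 to 4. H3f3b was 1.94 ± 0.231 times H3f3a (SD, n = 4), higher in every library. H3f3a has 16 near-identical genes in the annotation and overlaps H3f3aos on the other strand. One of these 16 is H3f3c, annotated as a processed pseudogene on chromosome 2, which had 3.74, 3.9995, 3.84 and 5.06 FPKM. H3f3b has 2 near-identical genes, the closest being Gm37486 at 96.79% identity. Because reads could be shared between such copies, the levels of H3f3a, H3f3b and H3f3c and the ratio are uncertain.

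The linker histone variant H1f0, which accumulates in differentiated cells that have stopped dividing, had 73.3, 87.3, 65.3 and 65.0 FPKM. Its values were 12.3 ± 0.607 times those of H1fx, another single-gene linker histone, which had 6.26, 6.77, 5.10 and 5.46 FPKM. H1f0 also exceeded Hist1h1c, the highest clustered linker histone gene, by a ratio of 3.63 ± 0.856 (SD, n = 4), higher in 4 of 4 libraries.

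The macroH2A genes encode H2A with a large added domain, linked to inactive chromatin. H2afy had 37.4, 45.0, 39.5 and 43.0 FPKM, and H2afy2 had 7.70, 8.30, 7.81 and 9.73 FPKM. H2afy was 4.94 ± 0.418 times H2afy2 (SD, n = 4), and the ranges did not overlap. H2afx encodes H2A.X, which is phosphorylated around DNA breaks, and had 16.3, 20.2, 17.4 and 14.9 FPKM. H2afj, which encodes the H2A.J variant, had 14.7, 20.7, 18.1 and 17.9 FPKM. The values of H2afj and H2afx overlapped.

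The variants listed at 0 in all libraries were H1fnt and H1foo, linker histones of spermatids and oocytes, H2afb1, H2afb2 and H2afb3, H2A variants of the testis, and H2afy3, annotated as a processed pseudogene. An exact 0 in a table without counts can be a failed estimate. Every variant gene whose mean reached 1 FPKM lay above 1 FPKM in the test, with log2 differences from 1.36 for H3f3c (adjusted p = 8.4e-05, limma) to 6.90 for H2afz (adjusted p = 1.3e-07, limma).

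**Figure D2:**
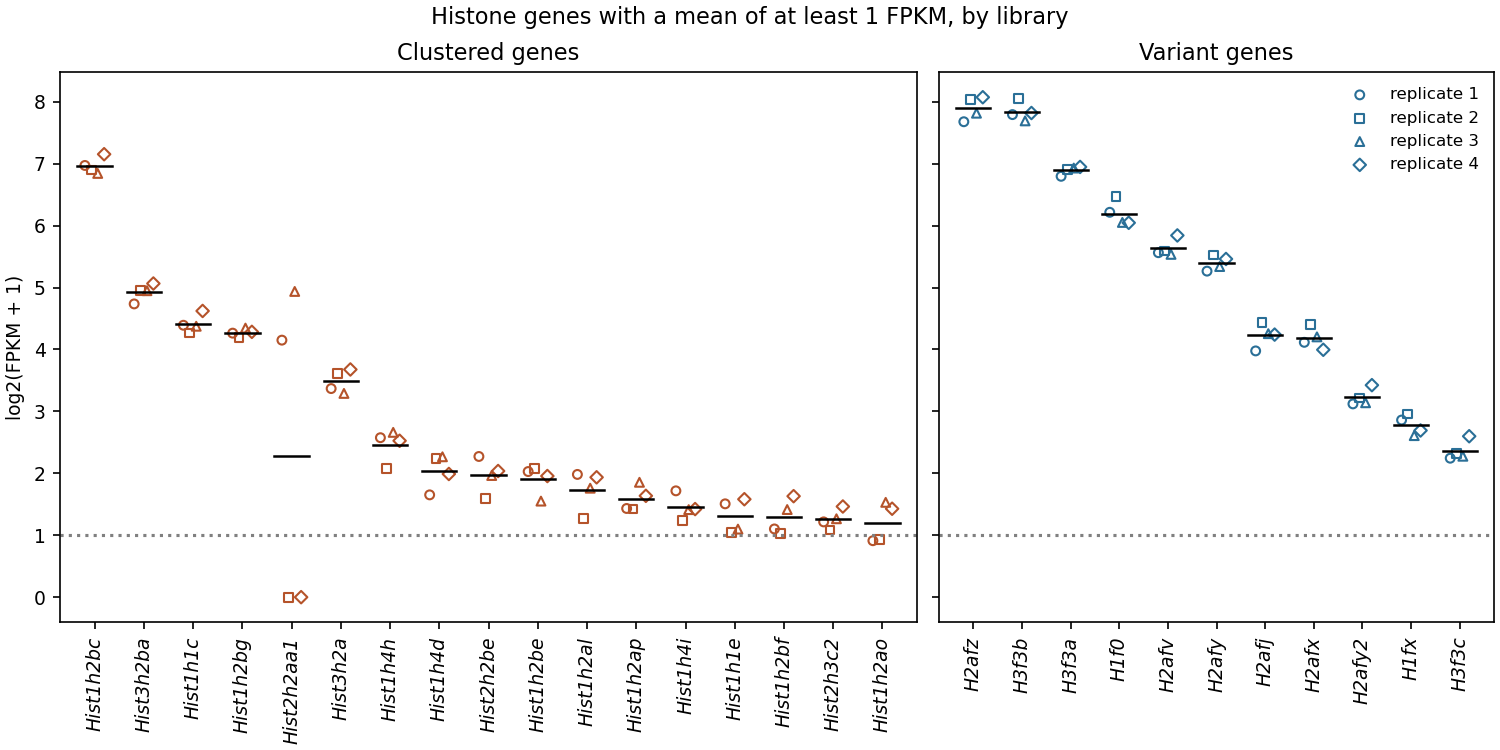
Histone genes whose mean was 1 FPKM or more, in log2(FPKM + 1) on the vertical axis, with 17 clustered genes on the left and 11 variant genes on the right. Symbols are replicates 1 to 4, bars are means and the dotted line marks 1 FPKM. Symbols of most genes lie close together, while Hist2h2aa1 is at 0 in replicates 2 and 4.

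Among clustered genes, Hist1h2bc had 124, 118, 114 and 141 FPKM in replicates 1 to 4. It held 49.0% ± 4.30 of all clustered FPKM (SD, n = 4). On the log2(FPKM + 1) scale it lay 5.97 ± 0.06 (SE, n = 4) above the value of 1 FPKM (adjusted p = 1.0e-07, limma). Its level overlapped that of H3f3a, with a ratio of 1.06 ± 0.103 (SD, n = 4) and the higher value in 2 of 4 libraries. The next clustered genes were Hist3h2ba, another H2B gene, with 25.6, 29.9, 29.9 and 32.5 FPKM, Hist1h1c, which encodes a linker histone, with 19.98, 18.3, 19.7 and 23.6 FPKM, and Hist1h2bg, an H2B gene as well, with 18.2, 17.3, 19.3 and 18.5 FPKM. These 4 genes together held 75.9% ± 5.44 of clustered FPKM (SD, n = 4).

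Below them, Hist3h2a, an H2A gene, had 9.33, 11.2, 8.78 and 11.8 FPKM. It overlaps Trim17 on the same strand, and Trim17 had 0.141, 1.49, 0.199 and 0.644 FPKM. The H4 gene Hist1h4h had 4.96, 3.23, 5.33 and 4.76 FPKM, and the H4 gene Hist1h4d had 2.14, 3.74, 3.81 and 2.97 FPKM, so their values overlapped. The H2B genes Hist2h2be (mean 2.97 FPKM) and Hist1h2be (2.78 FPKM), the H2A genes Hist1h2al (2.39 FPKM) and Hist1h2ap (2.03 FPKM) and the H4 gene Hist1h4i (1.75 FPKM) completed the 12 clustered genes above 1 FPKM. Hist1h2al is annotated as a processed pseudogene outside the main clusters. Hist1h4i passed narrowly (adjusted p = 0.0213, limma) and did not pass without replicate 1, 3 or 4 (adjusted p = 0.0737, 0.0558 and 0.0673, limma). Hist1h1e, an H1 gene, at 1.51 ± 0.473 FPKM and Hist1h2bf, an H2B gene, at 1.49 ± 0.489 FPKM (SD, n = 4 each) did not pass.

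Hist2h2aa1, an H2A gene, was the one member with a high mean whose libraries disagreed. It had 16.8 and 29.6 FPKM in replicates 1 and 3 and was listed at 0 in replicates 2 and 4, so it was not called. Its difference from 1 FPKM on the log2(FPKM + 1) scale was 1.27 ± 1.03 (SE, n = 4, adjusted p = 0.286, limma). Its coding sequence matches a transcript of Gm20632 at 100% identity over at least 50% of its length, and Gm20632 had 8.32, 6.95, 9.12 and 9.79 FPKM. Hist2h2aa1 overlaps Gm20633, which had 0, 3.27, 0.0393 and 2.37 FPKM. It also overlaps Gm20634, which had 4.02, 3.38, 2.13 and 6.16 FPKM, and its near-identical neighbour Hist2h2aa2 had 0, 0, 1.58 and 0 FPKM. Gm20633 was high in the libraries in which Hist2h2aa1 was listed at 0, while Gm20632, Gm20634 and Hist2h2aa2 did not show that pattern. The assignment of reads between these genes was not tested, and the level of Hist2h2aa1 is uncertain.

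By histone type, the clustered genes above 1 FPKM were 1 of 4 tested H1 genes, 3 of 18 H2A genes, 5 of 19 H2B genes, 0 of 11 H3 genes and 3 of 13 H4 genes. At an unadjusted p under 0.05 the count of clustered H3 genes above 1 FPKM was also 0 (limma). Those below were 2 H1, 9 H2A, 12 H2B, 10 H3 and 10 H4 genes. The shares over all genes tested were 47.7% above and 40.1% below. The highest clustered H3 gene, Hist2h3c2, had 1.32, 1.12, 1.40 and 1.76 FPKM and did not pass (adjusted p = 0.0900, limma). The clustered genes listed at 0 throughout were Hist1h1a and the testis-specific Hist1h1t, which encode linker histones, the H2A genes Hist1h2aa and Hist2h2ab, and the H3 gene Hist1h3g.

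In the order of mean levels of the members at 1 FPKM or more, 20 of 27 pairs of neighbours had overlapping ranges. The steps without overlap were those between H3f3b and Hist1h2bc, between H3f3a, H1f0, H2afv, H2afy, Hist3h2ba and Hist1h1c in turn, and between H2afy2 and H1fx.

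The stem-loop of replication-dependent histone mRNAs, bound by the protein SLBP, was searched for in the annotated spliced transcripts (GENCODE M21, GRCm38). The pattern, sought within 150 bases after the stop codon, was a stem of 6 bases beginning with GG, a loop of 4 bases beginning with TT, and 6 bases ending with CC that pair with the first 6 with at most 1 mismatch. It was present in 41 of 50 clustered coding genes that have at least 16 annotated bases after the stop codon (82.0%). Among variants with such a stretch it was present in 1 of 13, and among other genes in 39 of 20590 (0.189%). The variant was H2afx. In all 42 histone genes the stem paired without a mismatch, and it began 22 to 59 bases after the stop codon (median 33). Another 15 clustered coding genes have fewer than 16 annotated bases there and could not be searched.

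The sequences of 3 of the highest clustered genes, of H2afx, of a clustered H4 gene and of a low clustered H3 gene are given as mRNA-sense DNA with 5 flanking bases on each side. They show how little the element differs between genes of very different level. Capitals mark the stem-loop.
Hist3h2ba: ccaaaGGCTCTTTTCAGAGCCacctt
Hist1h1c: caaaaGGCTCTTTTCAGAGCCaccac
Hist1h2bg: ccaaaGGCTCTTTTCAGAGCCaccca
H2afx: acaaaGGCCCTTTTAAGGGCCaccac
Hist1h4h: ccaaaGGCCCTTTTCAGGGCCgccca
Hist1h3e: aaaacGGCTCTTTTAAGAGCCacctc

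The 42 elements took 7 forms. The form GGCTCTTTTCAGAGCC of Hist1h1c was in 23 genes of types H1, H2A, H2B and H3, and the form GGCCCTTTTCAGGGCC of Hist1h4h was in 7 genes, all of type H4. Hist3h2ba and Hist1h1c had 29.5 and 20.4 FPKM, while Hist1h3e, with the loop of H2afx on the stem of Hist1h1c, averaged 0.311 FPKM. A stem-loop was thus present in genes above and below 1 FPKM: 9 of the 41 clustered genes with one lay above. Of those with at least 50 annotated bases past the stem-loop, 7 of 24 lay above (29.2%), and of those with fewer, 2 of 17 (11.8%), beside 47.7% of all genes tested. The 41 and the 24 include 1 member listed at 0, while the share over all genes tested leaves such genes out.

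A poly(A) signal was AATAAA or ATTAAA in the last 50 bases of the annotated sequence after the stop codon. For each gene, the coding transcript with the most bases after the stop codon was read. The signal was found in 17 of the 50 clustered coding genes with at least 16 annotated bases there (34.0%). Among such variants it was found in 10 of 13 (76.9%). Of the clustered genes with the signal, 7 of 17 lay above 1 FPKM (41.2%), and of those without it, 4 of 33 (12.1%), beside 47.7% of all genes tested. The 17 include 1 member listed at 0 and the 33 include 2, while the share over all genes tested leaves such genes out. The variant H2afx and 12 clustered genes had both a stem-loop and such a signal. Of these 12, Hist3h2ba, Hist1h1c, Hist3h2a, Hist1h4h, Hist1h2be and Hist1h4i lay above 1 FPKM. Hist1h4j, Hist2h4, Hist4h4 and Hist2h3c1 lay below it, Hist1h2ae passed in neither direction and Hist1h1t was listed at 0. Annotated transcript ends can rest on polyadenylated RNA from other samples, so these counts are a description.

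Hist1h2bc, the highest clustered gene, had neither element in its annotated spliced transcript. The gene lies on chromosome 13 of GRCm38, plus strand, with exon 1 at chr13:23684199-23684621 (423 bases) and exon 2 at chr13:23692176-23692908 (733 bases). An intron of 7554 bases separates them, unlike most clustered genes, which are single exons. The splice site lies 9 bases after the stop codon, so exon 1 holds the whole coding sequence and exon 2 holds 3′ UTR. The search read the spliced transcript, so bases of the intron were not searched for a stem-loop. In the genes with one, it began 22 to 59 bases after the stop codon, which here would fall in the intron. Of the 65 clustered coding genes, 5 have at least 2 exons in their longest annotated transcript, of which 2 lay above 1 FPKM and 3 below. The other one above was Hist1h2be, whose annotated span overlaps part of Hist1h1e on the same strand. Over all genes tested, 47.7% lay above and 40.1% below. The coding sequence of Hist1h2bc is near-identical to transcript sequence of 12 other genes, so the H2B assignment is uncertain.

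**Figure D3:**
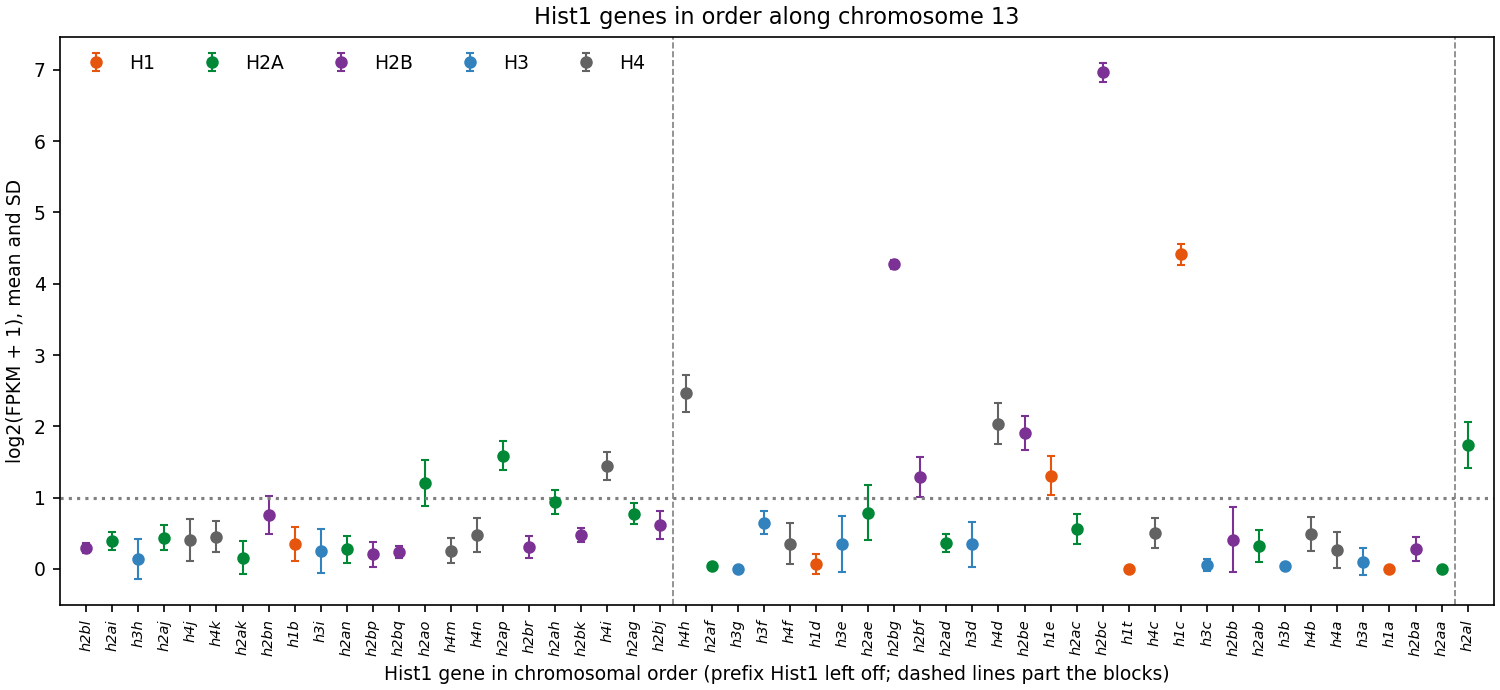
Hist1 genes in their order along chromosome 13 on the horizontal axis, with log2(FPKM + 1) as mean and SD over 4 libraries on the vertical axis, coloured by histone type. Dashed lines part the blocks and the dotted line marks 1 FPKM. Hist1h2bc, Hist1h1c and Hist1h2bg stand above neighbours that mostly lie below the dotted line.

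The Hist1 genes on chromosome 13 fell into blocks more than 1000000 bases apart. The first block, chr13:21715763-22043676, held 23 genes, of which 2 lay above 1 FPKM, 17 below and 4 in neither direction, with a highest mean of 2.03 FPKM. The second block, chr13:23531050-23934851, held 30 genes, of which 6 lay above, 17 below, 3 in neither direction and 4 were listed at 0. It held Hist1h2bc, Hist1h1c, Hist1h2bg, Hist1h4h, Hist1h4d and Hist1h2be. Genes of high and low level lay side by side within it. Of the smaller clusters, both Hist3 genes lay above 1 FPKM, as did 1 of the 11 Hist2 genes, while 6 Hist2 genes and the single Hist4 gene lay below. These counts stand beside 47.7% above and 40.1% below over all genes tested, which leave out genes listed at 0 in all libraries.

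Many H2A and H2B genes lie head to head and are transcribed away from a shared stretch of promoter. There were 12 such pairs, with 175 to 305 bases between the annotated 5′ ends. The H2B gene was higher in 4 of 4 libraries in 6 pairs, the H2A gene in 3 pairs, and 3 pairs were mixed. Hist1h2bc averaged 124 FPKM and Hist1h2ac, across 250 bases, 0.488 FPKM, a difference of 6.40 ± 0.08 on the log2(FPKM + 1) scale (SD, n = 4). Hist1h2bg averaged 18.3 FPKM and Hist1h2ae, across 175 bases, 0.775 FPKM, a difference of 3.48 ± 0.36. Hist2h2be averaged 2.97 FPKM and Hist2h2ac 0.0820 FPKM, a difference of 1.86 ± 0.32. In the pair with the largest difference the other way, Hist1h2br averaged 0.244 FPKM and Hist1h2ap 2.03 FPKM, a difference of -1.28 ± 0.35. No p-value is given for these differences. Most of these genes have near-identical copies over their coding sequence, between which reads could be shared.

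**Figure D4:**
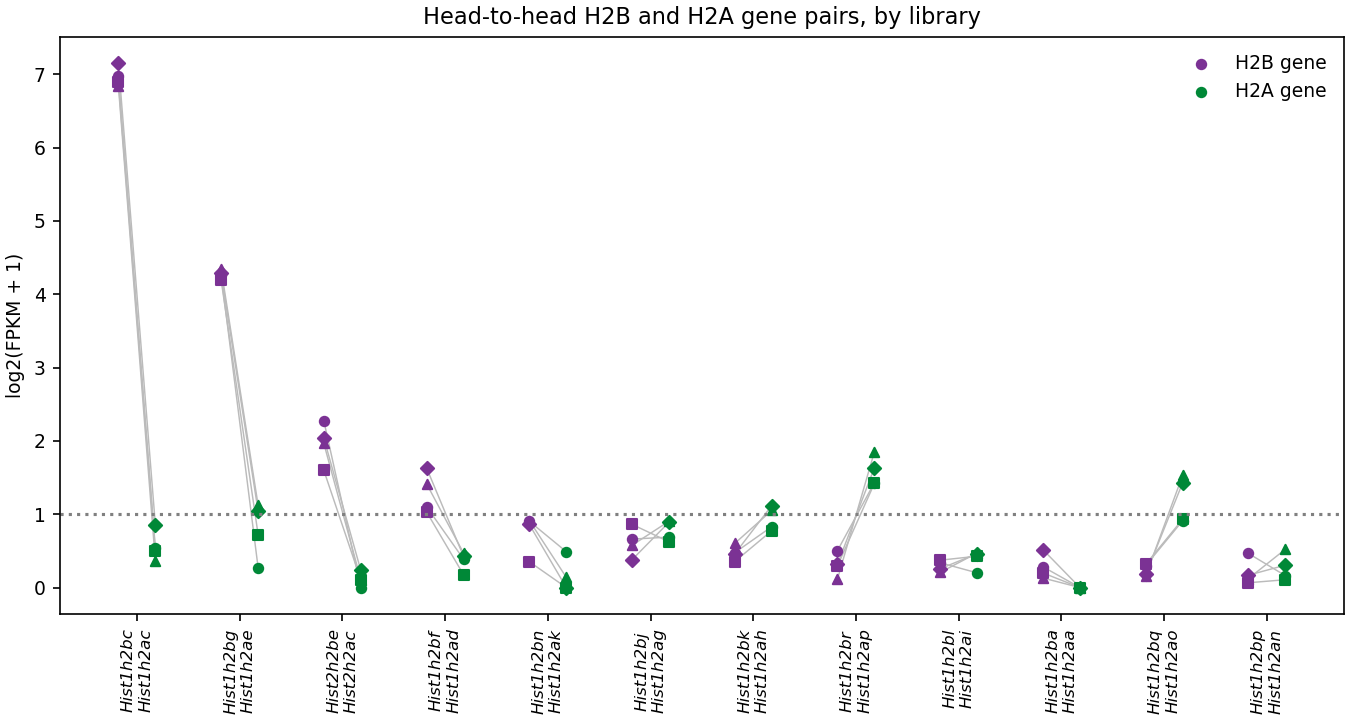
The 12 head-to-head gene pairs, with the H2B gene on the left and the H2A gene on the right of each pair, in log2(FPKM + 1) on the vertical axis. Symbols are the 4 libraries, lines join the values of a library and the dotted line marks 1 FPKM. The lines of Hist1h2bc and Hist1h2bg fall steeply to their H2A neighbours, and those of Hist1h2br and Hist1h2bq rise.

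The stretches between the 5′ ends of the 2 pairs with the largest differences show what the neighbours share. They were read from RefSeq promoter sequences (GRCm38.p6) and are written on the plus strand, so that the H2A gene starts to the left and the H2B gene to the right. Capitals mark CCAAT and TATAAA on either strand.
Hist1h2ac and Hist1h2bc, chr13:23683949-23684198: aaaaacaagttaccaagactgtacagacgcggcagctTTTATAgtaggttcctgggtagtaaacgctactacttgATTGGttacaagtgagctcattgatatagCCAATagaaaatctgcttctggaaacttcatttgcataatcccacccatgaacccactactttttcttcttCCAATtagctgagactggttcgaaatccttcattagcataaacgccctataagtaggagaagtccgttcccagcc
Hist1h2ae and Hist1h2bg, chr13:23571221-23571395: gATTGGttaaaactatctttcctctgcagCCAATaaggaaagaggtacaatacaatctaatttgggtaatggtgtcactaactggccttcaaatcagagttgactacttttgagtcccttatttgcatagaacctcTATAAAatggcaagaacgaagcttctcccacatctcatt

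The first stretch held 3 CCAAT matches and 1 TATAAA match, the TATAAA match reading toward Hist1h2ac, the low member of its pair. The second held 2 CCAAT matches and 1 TATAAA match reading toward Hist1h2bg, the high member. Over the promoter windows of 250 bases before to 50 after the start that matched a member, CCAAT on either strand was in 52 of 61 clustered genes (85.2%) and 9 of 14 variants (64.3%), beside 37.9% of 27025 promoters in the table. TATAAA on either strand was in 35 of 61 clustered genes (57.4%) and 1 of 14 variants (7.14%), beside 14.2% of all promoters. A match is a run of letters and was not tested as a binding site.

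The genes that make, carry and place histones were read from lists of named genes. Of 14 genes listed for histone mRNA 3′ end processing, 13 lay above 1 FPKM and 1 below, beside 47.7% and 40.1% of all genes tested. The list is wider than that step. It holds Npat (2.89 FPKM), which acts in histone gene transcription, Mbnl1 (18.5 FPKM), a splicing regulator, and factors such as Snrpb that also serve other mRNAs. Their median of mean levels was 14.6 FPKM, beside 1.45 FPKM over all genes tested. Slbp, which encodes the stem-loop binding protein, had 28.0, 39.6, 33.5 and 43.2 FPKM. Snrpb, which encodes a core protein of small nuclear RNPs, averaged 76.5 ± 7.56 FPKM, and Lsm10 and Lsm11, the Sm-like proteins of the U7 particle that cuts histone pre-mRNA, averaged 16.03 ± 1.88 and 2.07 ± 0.627 FPKM (SD, n = 4 each). The lowest were Casp8ap2 at 1.57 ± 0.105 FPKM and Zfp473, a zinc finger protein of the same pathway, at 0.0755 ± 0.148 FPKM (SD, n = 4 each). Casp8ap2 did not pass without replicate 1, 3 or 4 (adjusted p = 0.0683, 0.0734 and 0.0794, limma).

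Of 14 chaperones that deposit H3 and H4, 11 lay above 1 FPKM, 1 below and 2 in neither direction. Over all genes tested, 47.7% lay above and 40.1% below. The median of mean levels of these chaperones was 6.46 FPKM. The histone-binding proteins Rbbp7 and Rbbp4 averaged 69.8 ± 6.55 and 51.4 ± 5.73 FPKM (SD, n = 4 each). Hira and Daxx, which deposit H3.3 outside replication, averaged 6.85 ± 1.73 and 8.24 ± 1.52 FPKM. Chaf1a and Chaf1b, 2 of the subunits of the chaperone CAF-1 that acts at replication forks, averaged 0.833 ± 0.182 and 0.372 ± 0.318 FPKM (SD, n = 4 each). These genes were picked after their values were seen, and the list was not split by route of deposition. Of its other members, Ubn1, Cabin1 and Ubn2 averaged 3.19, 2.97 and 2.62 FPKM, and Dek, Atrx and Nasp 32.1, 10.8 and 6.06 FPKM. Rbbp4, given above at 51.4 FPKM, is a CAF-1 subunit as well, so the members of that complex did not share a low level. Chaf1b lay below 1 FPKM (adjusted p = 0.00977, limma) and Chaf1a passed in neither direction. Asf1a averaged 11.4 ± 1.15 FPKM and its proliferation-linked paralog Asf1b 0.769 ± 0.566 FPKM. Of 15 table entries for exchange of H2A and H2A.Z, 13 lay above 1 FPKM, 0 below and 2 in neither direction, with a median of mean levels of 22.7 FPKM. At an unadjusted p under 0.05 (limma), 0 of them lay below. Nap1l4 and Nap1l1 averaged 73.1 ± 12.8 and 57.8 ± 3.59 FPKM, and Anp32e, a chaperone that removes H2A.Z, 35.5 ± 3.50 FPKM (SD, n = 4 each).

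S phase and proliferation genes were spread around 1 FPKM: 7 of 20 lay above, 7 below and 6 in neither direction, with a median of mean levels of 1.22 FPKM, beside 47.7% above and 40.1% below over all genes tested. After rescaling to a sum of 1000000, 11 lay above and 3 below, beside 54.3% and 29.7% over all genes tested. Pcna, the sliding clamp of DNA polymerase, averaged 39.3 ± 5.84 FPKM and Ccne1, a G1/S cyclin, 8.61 ± 1.78 FPKM. Cdc6, a replication licensing factor, averaged 0.0794 ± 0.0214 FPKM and Mki67, a proliferation marker, 0.0136 ± 0.0205 FPKM (SD, n = 4 each). The centromeric H3 variant gene Cenpa, which lies outside the naming rule, had 1.66, 2.54, 2.75 and 3.31 FPKM.

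**Figure D5:**
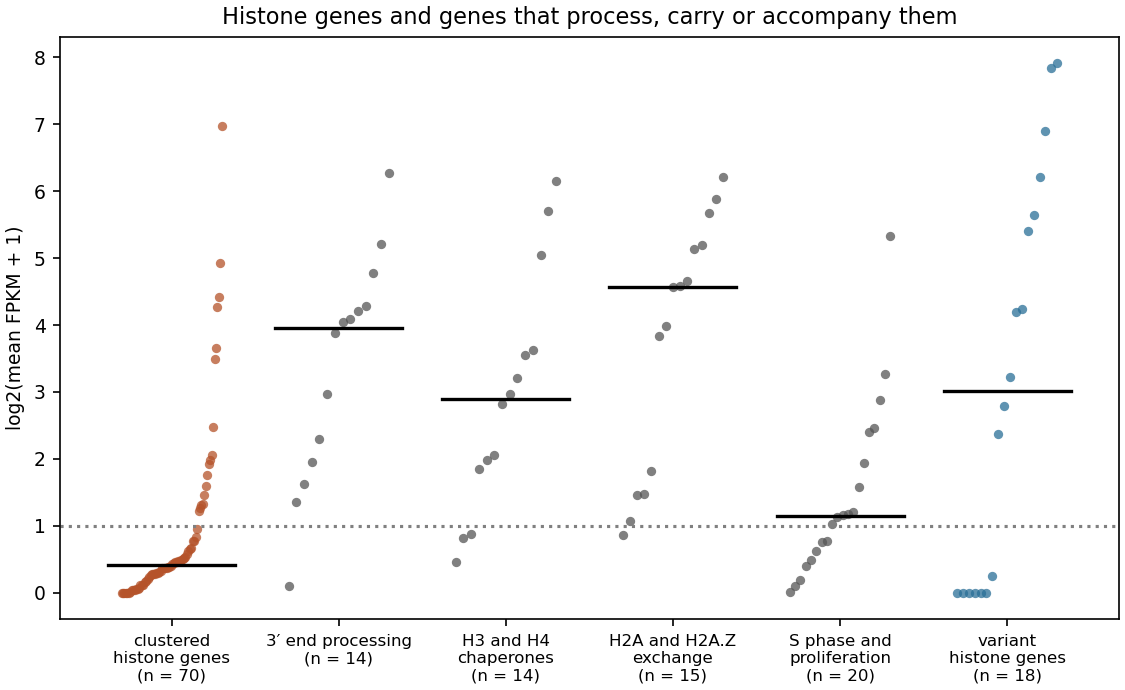
Mean level of each gene as log2(mean FPKM + 1) on the vertical axis, for clustered histone genes, the lists of genes that process, deposit, exchange or accompany histones, and variant histone genes. Points are genes, bars are medians and the dotted line marks 1 FPKM. Most genes of the 3′ end processing and exchange lists lie well above the dotted line, and clustered histone genes mostly lie below it.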

How the data were processed

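Poly(A) RNA from 4 libraries was sequenced. The authors deposited 1 table of FPKM for 46072 genes, and per the submitters' processing notes the build was GRCm38 and the tools were HISAT2 2.2.1, StringTie 2.2.1, SAMtools and bcl2fastq 2.20. Neither the annotation release, nor the strand setting, nor how multi-mapped reads were assigned is given in the sources used here. Without strand, reads of a gene and its antisense partner cannot be told apart. FPKM divides by transcript length and mapped total, so a few very high genes lower all others.

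limma 3.58.1 in R 4.3.3 tested log2(FPKM + 1), with a pseudocount of 1, against 1 FPKM in each of 25206 genes above 0 in any library, moderated with a trend of variance on mean, 2-sided, with Benjamini-Hochberg adjustment at 0.05. The pseudocount understates differences of low genes, and differences of high genes from 1 FPKM are also smaller than their log2 ratios to 1 FPKM. The step was tested on simulated data. GENCODE M21 (GRCm38) covered 86 of the 88 members, all except Hist1h2bh and Hist1h2bm, and gave positions, overlaps and transcripts. BLAST+ 2.17.0 compared the coding sequence of each member with all transcripts of other genes on both strands. Members without an annotated coding sequence entered with their longest transcript. By this comparison, 62 members had a near-identical gene. RefSeq promoters matched 75 members. The name Hist2h2bb stands on 2 rows of the table, both counted. One of them is a lincRNA in GENCODE.

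The members and lists were chosen with earlier results of these data known. Named genes were the variants at 1 FPKM or more, the 15 highest clustered genes, the 3 with the largest SD relative to the mean, up to 6 members listed at 0 (all 11 are named here), and the highest and lowest of each list. Partners in pairs, other H3 and H4 chaperones, Npat, Hist2h3c2, Hist1h3e and Cdt1 were named after their values were seen. So were genes with both a stem-loop and a poly(A) signal and genes that overlap a member. Of the listed names, 1 of 15 for 3′ end processing and 1 of 4 centromeric names did not match the table, and Srcap has 2 entries. Other settings covered the pseudocount, scaling, a filter on low values, the variance model, class definitions and each library left out. 0 columns were left out.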

Additional observations from a re-analysis of the deposited data

Results flagged for a closer look

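In 72 genes with values in 4 libraries, the highest or lowest library was set against the other 3 by Dixon's criterion, which flags about 1 in 20 groups by chance. It picked out 3 genes. H2afv had 56.33 FPKM in replicate 4, against 45.4 to 47.1 FPKM in the other libraries. Ccne1 had 11.2591 FPKM in replicate 2, against 7.43 to 7.97 FPKM in the others. Zfp473 had 0.296907 FPKM in replicate 2 and 0.00519 FPKM in replicate 3 and was listed at 0 in replicates 1 and 4.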

How the results depend on the processing

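No paired analysis was possible because the series has 1 group. The numbers of variant genes above (11) and below (1) 1 FPKM were equal under all 10 settings tried for them. Rescaling FPKM to a sum of 1000000 raised log2 FPKM by 1.05 to 1.16. On the log2(FPKM + 1) scale of the tests the rise was smaller, most so in low genes. The rescaling gave 21 clustered genes below 1 FPKM, 0 H3 and H4 chaperones below and 0 pan-endothelial genes below. It gave 11 S phase genes above and 3 below, while over all genes tested 13693 lay above (54.3%) and 7474 below (29.7%). Testing only genes whose mean reached 0.1 FPKM gave 5197 genes below, 0 3′ end processing genes below and 4 S phase genes below. Cdc6, Mki67 and Zfp473 were not tested under that filter, and Cdt1 was tested but did not pass (adjusted p = 0.0939, limma). A pseudocount of 0.01 also gave 4 S phase genes below. With 1 library left out, 1 to 2 H3 and H4 chaperones lay below, the 2 arising without replicate 2. The clustered minus variant difference of -2.60 was -4.07 and -4.40 with pseudocounts of 0.1 and 0.01, -3.24 rescaled, -4.37 without members listed at 0, -2.29 from class means and -1.38 with classes by stem-loop. It was 0.29 without overlapping or near-identical members, where 4 of 5 remaining variants are listed at 0. Among settings chosen after seeing the data, it was -5.20 with members listed at 0 left out as well and -3.75 for protein-coding genes. Leaving out a library gave -2.66 to -2.54. The share of FPKM of all, clustered and variant histone genes was 0.263%, 0.0634% and 0.200% without mitochondrial genes and Ttr, and 0.200% (all) and 0.0279% (clustered) without Hist1h2bc, a setting chosen after seeing the data. For single genes, 659 values over 68 genes kept direction and side of the threshold, 7 were weaker, 6 stronger and 5 reversed. The reversed ones were Asf1b (0.31 rescaled), Hist2h2aa1 (-1.10 at a pseudocount of 0.01), Ino80 (-0.00444594 at 0.01 and -0.11 to 0.20 over the libraries left out, the lowest without replicate 1) and the second Srcap entry (0.41 rescaled). Except where stated, the cause was not tested. Hist2h2aa1 passed with the filter at 0.1 FPKM (adjusted p = 0.0357, limma). Read depth is unknown, so the precision of low values cannot be given.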
